A study of Mus musculus with 15 samples.

Results

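PPARα-null livers were compared with wild-type livers when mice of both genotypes had been given di(2-ethylhexyl) phthalate (DEHP), a plasticizer. The comparison holds 7 of the 15 arrays of the series, 3 null and 4 wild-type, 1 array per animal, chosen by the sample labels alone and by no measured value. The mice were males of 7.5 months (within 2.5 weeks) that received 4 daily gavage doses of DEHP at 1150 mg/kg/day in corn oil. The remaining 8 arrays, 4 of each genotype, came from males of the same age gavaged with corn oil alone, and they give the genotype difference without DEHP. Null mice carried the allele Pparatm1Gonz (129S4/SvJae-Pparatm1Gonz/J) and wild-type mice were 129S1/SvlmJ, both kept inbred on 129/Sv. The 2 genotypes thus came from different 129 substrains, and substrain and genotype cannot be told apart in any difference below. The allele is carried in the germline, so effects of its loss in hepatocytes, in other liver cells and in other organs cannot be told apart either.

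PPARα is a nuclear receptor that fatty acids and peroxisome proliferators activate. It binds DNA as a heterodimer with the retinoid X receptor at direct repeats of a short core sequence, and in rodent liver it is known to induce ω-hydroxylation, peroxisomal and mitochondrial β-oxidation and the handling of fatty acids around them. Phthalates are among its classical activators, and the constitutive androstane receptor (CAR), a xenobiotic sensor that induces other cytochromes P450, is a further receptor named in the title of the series.

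Each gene was read as the log2 of its deposited intensity, and a difference is the null mean minus the wild-type mean on that scale, so 1 unit is 2-fold. Differences carry the standard error (SE) of a limma fit and a p adjusted over all 19938 genes. A gene is said to be higher or lower in null livers, or is called, only where the adjusted p was below 0.05. Animals are named by the number of their label. Values of single livers are in the order WT-56, WT-57, WT-58, WT-59 for the wild type and KO-121, KO-122, KO-123 for the null.

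The targeted gene came first. Ppara read 9.87, 9.59, 10.23 and 9.55 in wild-type livers and 9.11, 9.27 and 9.12 in null livers. The groups did not overlap, and the difference was -0.64 ± 0.13 (adjusted p = 0.00422), beside -0.69 under corn oil (adjusted p = 0.939 for the difference between the treatments). A signal stayed in null livers. The exons read by the probe set are not known here, so the gene checks the labels only in part. The CAR gene Nr1i3 differed by 0.24 ± 0.10 (adjusted p = 0.139) and the pregnane X receptor gene Nr1i2 by -0.23 ± 0.08 (adjusted p = 0.0856), neither past the threshold.

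Array medians of intensity ran from 44.4 to 47.5 over the series, and the 7 hepatocyte markers measured summed to 67600 to 71500 in DEHP-treated null livers and 65400 to 67700 in DEHP-treated wild-type livers. A pair of animals stood apart within their groups and bear on what follows. WT-58 read highest of the wild-type livers on the fatty acid oxidation lists, with a median 0.212 above the group mean over the mitochondrial list where the other three lay between -0.088 and -0.072. KO-122 decided many small differences: leaving it out cut the number of called genes from 2133 to 1019, of which 999 were among the 2133. Without WT-58 the count was 1950.

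Of 19938 genes, 1014 were higher in null livers (5.09%) and 1119 lower (5.61%), together 10.7% of all genes tested. Every list count below is to be read beside these shares, and a count near them says nothing particular about its list. Most differences were small, with a median size of 0.38 among the called genes. At least 2-fold differences were far fewer (102 genes, 0.512%) and were mostly reductions, 75 lower against 27 higher. At 4-fold the numbers were 21 lower and 3 higher. The share higher among the called genes was 47.5%, and 39.7% when each array was first centred on its median. In 4092 genes (20.5%) the highest liver of one genotype lay below the lowest of the other, and 2044 of the called genes were among these. A fit of these 7 arrays alone, without the corn oil groups to estimate the spread, called 1331 genes (545 higher, 786 lower), and 1267 were shared. With each of the 7 arrays left out in turn, 895 genes kept their call every time, 337 higher and 558 lower, and the number higher fell to 411 without KO-122 (608 lower) and to 644 without WT-56. Bright genes were called more often, 26.1% of the 4985 brightest by mean level (638 higher, 664 lower) against 1.08% of the 4985 dimmest (37 higher, 17 lower). This is the background for lists of abundant or dim transcripts.

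The genotype difference under corn oil, was measured on other animals. There 237 genes were called (1.19%), 128 higher (0.642%) and 109 lower (0.547%), and groups did not overlap in 1540 genes (7.72%). Of these 64.1% (152 genes) were also called under DEHP, which is 7.13% of the DEHP calls, and 150 of them had the same direction. The other two, the thioesterase Acot1 and the GTPase-activating protein gene Dlc1, changed direction. Dlc1 read 7.26 to 7.45 in wild-type and 7.65 to 7.78 in null livers under DEHP (0.36 ± 0.07) and differed by -0.29 under corn oil. Genes called under DEHP had the same sign under corn oil in 78.0% of cases, against 58% of all genes, but their median there, turned to the DEHP sign, was only 0.09. Of the 75 genes at least 2-fold lower under DEHP, 33 were also called lower under corn oil. The 2 differences themselves were compared gene by gene in the same fit: 179 genes (0.898%) differed between the treatments, 67 more positive under DEHP (0.336%) and 112 more negative (0.562%). Of the 179, 170 were called under DEHP, and 150 of these were not called under corn oil. This count ran from 61 without WT-53 to 299 without KO-116, a pair of corn oil animals, and was 65 without KO-122. The number higher under corn oil was 79, 82 and 83 without KO-115, WT-53 and WT-54.

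**Figure D1:**
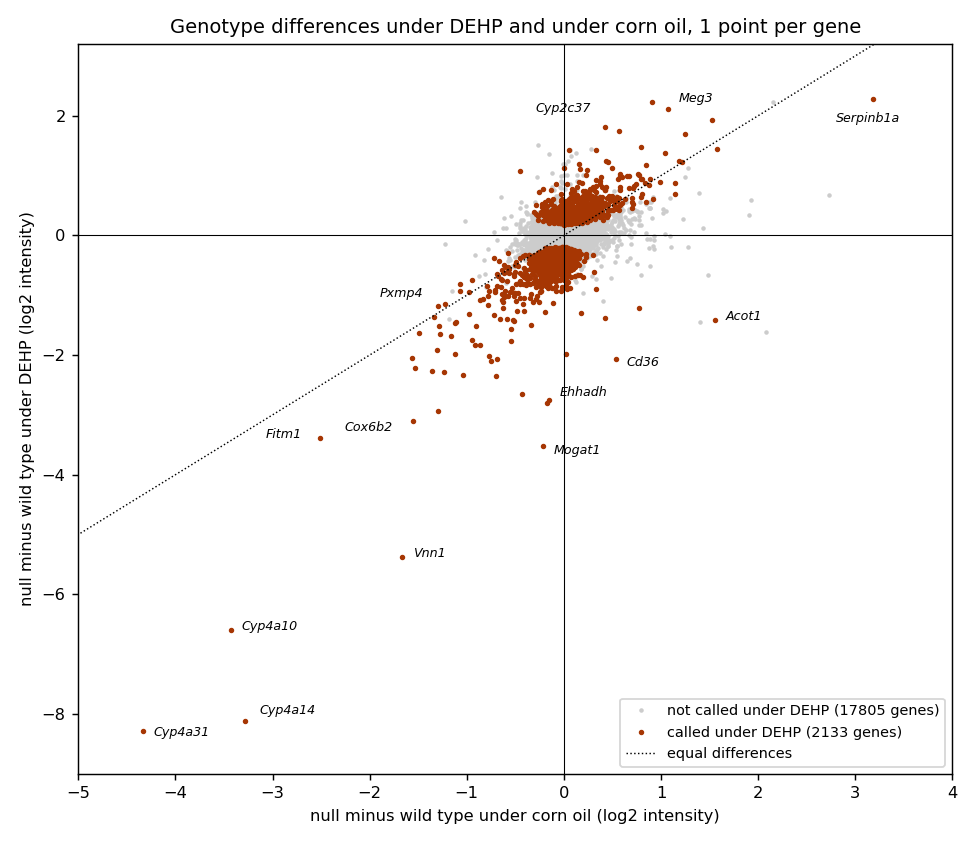
Null minus wild-type difference in log2 intensity under DEHP (vertical) against corn oil (horizontal), 1 point per gene, with the 2133 genes called under DEHP in dark orange, the other 17805 in grey and equal differences on the dotted line. The Cyp4a genes and Vnn1 lie far below the dotted line, Pxmp4 lies near it, and Acot1 and Cd36 lie right of the vertical zero line and below the horizontal one.

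The largest differences lay in the ω-hydroxylases, cytochromes P450 that oxidize the terminal carbon of fatty acids. Cyp4a31 read 12.31, 12.31, 12.56 and 12.32 in wild-type livers and 4.15, 3.22 and 4.91 in null livers. Cyp4a14 read 13.39 to 13.50 in wild-type livers against 5.85, 4.58 and 5.48, and Cyp4a10 read 11.65 to 11.74 against 5.21, 4.91 and 5.11. All 3 genes were bright in wild-type livers, while their null means (intensities of 17.1, 39.5 and 33.8) lay below the median of every array. The size of such a difference rests on readings near the array's background, so no fold is given where the dimmer group lies there. The differences were -8.28 ± 0.39 for Cyp4a31 (adjusted p = 3.3e-09), -8.13 ± 0.48 for Cyp4a14 (adjusted p = 3.38e-08) and -6.60 ± 0.23 for Cyp4a10 (adjusted p = 1.29e-10). With 16 added to each intensity before the log2, which damps dim readings, they were -7.29, -7.62 and -6.05. They were already large under corn oil, at -4.34, -3.29 and -3.43, and the difference between the treatments passed the test for each, at -3.95, -4.84 and -3.18 (adjusted p = 0.00257, 0.00257 and 0.000157).

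Of the 11 ω-hydroxylases measured, these 3 included, 5 were lower and 1 higher, with a median of -0.33 against 0.02 over all genes. Of those beside the 3, Cyp4a12b was lower (-0.70) and its near copy Cyp4a12a was lower too (-0.42 ± 0.11, adjusted p = 0.0256, but 0.16 without KO-122). Cyp4f14 went the other way, with 10.50, 10.55, 10.21 and 10.65 in wild-type livers against 11.10, 11.11 and 11.30, a difference of 0.69 ± 0.09 (adjusted p = 0.000185) that was -0.03 under corn oil. The 5 members not called lay between -0.33 and 0.26. The Cyp4a genes are paralogs, some of them close copies, and cross-hybridization between their probes was not tested.

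In peroxisomal β-oxidation, which shortens very long and branched fatty acids, 14 of 32 measured genes were lower and 0 higher by limma, at a median of -0.33 (20 and 0 at an unadjusted p below 0.05, and 10 lower without KO-122). Ehhadh, the bifunctional enzyme of the pathway, read 12.75, 12.96, 13.42 and 12.86 in wild-type livers and 10.39, 9.86 and 10.49 in null livers, a 6.74-fold reduction (-2.75 ± 0.17, adjusted p = 4.24e-08). Under corn oil the genotypes differed by -0.15 at Ehhadh (adjusted p = 0.773), and the difference between the treatments was -2.60 (adjusted p = 4.84e-05). The dienoyl-CoA reductase Decr2 was lower (-2.04) under DEHP and under corn oil (-1.57), a pair whose difference did not pass the test (adjusted p = 0.312). The thiolase Acaa1b was lower (-1.77 ± 0.16, adjusted p = 5.84e-06), more than under corn oil (-0.55, adjusted p = 0.019 for the difference between the treatments). Abcd2, a peroxisomal transporter of very long acyl-CoA, read 7.67, 7.69, 8.30 and 5.78 in wild-type livers and 5.52, 5.39 and 5.13 in null livers. WT-59 lay close to the null livers at this gene, and the difference was -2.01 ± 0.43 (adjusted p = 0.00632).

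Peroxisome biogenesis had 5 of 19 genes lower and 0 higher (10 and 0 unadjusted). Pxmp4, a peroxisomal membrane protein, was lower with DEHP (-1.15 ± 0.08) and without it (-1.23, adjusted p = 0.831 for the difference between the treatments). Its wild-type livers read 9.41 to 9.66 and its null livers 8.31 to 8.39. The proliferation factor Pex11a was lower (-1.11 ± 0.20, adjusted p = 0.00237), with WT-58 at 10.56 and the other wild-type livers at 9.43 to 9.48. The membrane-assembly factor Pex16 and the import receptor Pex7 were lower too (-0.66 and -0.48).

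Mitochondrial fatty acid oxidation had the median furthest from 0 of all lists examined, with 18 of 25 genes lower, 0 higher (19 and 0 unadjusted) and a median of -0.64. Without KO-122, 15 were lower. Slc25a20, the carnitine-acylcarnitine carrier, read 10.78, 10.77, 11.38 and 10.75 against 8.87, 9.02 and 9.11 (-1.92 ± 0.15, 3.78-fold, adjusted p = 6.63e-07). The enoyl-CoA isomerase Eci1 was lower (-1.83 ± 0.12), and the very-long-chain and long-chain acyl-CoA dehydrogenases Acadvl and Acadl differed by -1.52 ± 0.08 and -1.32 ± 0.09 (adjusted p = 8.56e-09 and 3.25e-07). None of the 4 genes overlapped between genotypes. Each was also called lower under corn oil, at -1.3, -0.91, -0.91 and -0.72, and for Eci1, Acadvl and Acadl the difference grew with DEHP (adjusted p = 0.0185, 0.0163 and 0.0363). Of the list, 9 genes were called lower under corn oil.

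Ketone body synthesis and the pyruvate dehydrogenase kinases had 2 of 12 genes lower and 1 higher, the latter the cytosolic dehydrogenase gene Bdh2 (0.39 ± 0.11, adjusted p = 0.0344, and 0.119 without KO-123). Bdh2 was not called without WT-56, WT-57 or WT-59 either. The fasting hormone gene Fgf21 was lower, at 6.98, 6.40, 6.30 and 6.17 against 5.49, 5.37 and 5.19 (-1.11 ± 0.19, adjusted p = 0.00132). The acetoacetyl-CoA thiolase Acat1 was lower (-0.42 ± 0.08).

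Acyl-CoA thioesterases, which release free fatty acids from coenzyme A, held the reversal. Acot1 read 9.76, 9.70, 10.85 and 9.25 in wild-type livers and 8.42, 8.01 and 9.0 in null livers under DEHP, without overlap (-1.42 ± 0.29, 2.67-fold lower, adjusted p = 0.005). Under corn oil it was higher in null livers, with means of 8.75 against 7.20 (1.56, adjusted p = 0.00689), and the difference between the treatments was -2.97 (adjusted p = 0.00257). Its mitochondrial relative Acot2 went from 0.78 under corn oil, not called, to -1.21 ± 0.30 under DEHP (adjusted p = 0.0154, and 0.0755 without KO-122). The peroxisomal Acot8 was lower under both treatments (-1.26 ± 0.11 and -0.49). Of 12 thioesterases 4 were lower, 2 of them without KO-122, and 0 higher (5 and 2 unadjusted), with 1 higher without WT-56 or without WT-59. The 8 not called ranged from -0.48 for Acot3, whose wild-type livers spread from 6.02 to 8.42, to 0.38. The Acot genes are close paralogs too.

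Uptake and binding of fatty acids followed, with 7 of 15 genes lower and 0 higher (9 and 2 unadjusted, median -0.33), and 1 higher without KO-123. Cd36, the membrane fatty acid translocase, read 10.41, 10.31, 10.73 and 10.23 in wild-type livers and 8.53, 8.19 and 8.37 in null livers (-2.06 ± 0.17, 4.16-fold, adjusted p = 1.49e-06). Under corn oil Cd36 differed by 0.53 in the other direction, which was not called. The fatty acid-binding protein genes Fabp4 and Fabp2 were lower (-1.38 ± 0.20 and -1.3 ± 0.11), and each differed between the treatments (adjusted p = 0.00725 and 0.000192). The fatty acid transporter Slc27a1 was lower (-0.76 ± 0.16, adjusted p = 0.00486). The corn oil list had 1 gene higher and 0 lower (4 and 2 unadjusted). For 4 of the 15 genes the difference between the treatments was called, each more negative under DEHP.

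**Figure D2:**
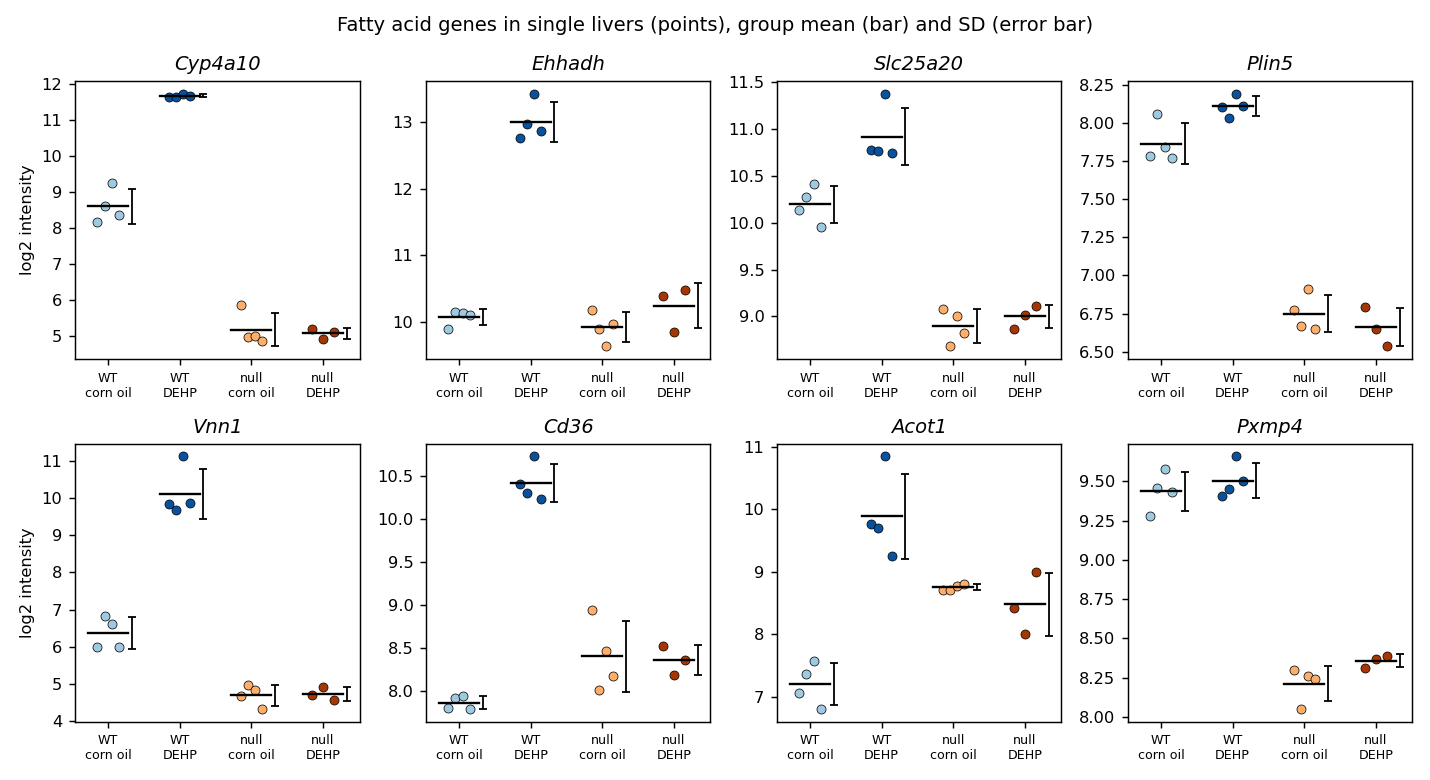
Log2 intensity of 8 genes of fatty acid metabolism in single livers (points) of the 4 groups, with the group mean (bar) and SD (error bar). Under DEHP the null livers lie below all wild-type livers in each panel, whereas under corn oil Acot1 is higher in null livers and Ehhadh overlaps.

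Glycerolipid and droplet genes split. Of 31, 5 were lower (3 without KO-122) and 1 higher (0 without WT-59 or KO-121, 2 without WT-58 or KO-123). Mogat1, which makes diacylglycerol from monoacylglycerol, read 7.35, 7.19, 8.04 and 7.29 against 3.84, 4.05 and 3.93. The null mean intensity of 15.4 lay below the lower quartile of every array (16.89 to 17.99), at background. The difference was -3.53 ± 0.18 (adjusted p = 8.22e-09, and -2.62 with 16 added), while under corn oil the difference was not called (-0.22, adjusted p = 0.671, and adjusted p = 1.05e-05 for the difference between the treatments). Fitm1, which partitions fat into droplets, was 10.5-fold lower under DEHP (-3.39 ± 0.24) and lower under corn oil (-2.52). The droplet coat gene Plin5 read 8.03 to 8.19 against 6.54 to 6.79, a difference of -1.44 ± 0.09 (adjusted p = 4.24e-08) that was -1.11 under corn oil.

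Among further genes known as PPARα targets, 12 of 36 were lower and 2 higher. The number higher was 4 without WT-58 and 1 without WT-56, WT-59, KO-121 or KO-122. Vnn1, a pantetheinase, read 9.83, 9.67, 11.12 and 9.86 in wild-type livers and 4.72, 4.93 and 4.57 in null livers. The difference was -5.38 ± 0.29 (adjusted p = 1.31e-08), against -1.66 under corn oil. The null mean intensity of 26.8 was near background, and with 16 added the difference was -4.72. The retinol saturase Retsat read 12.82 to 13.09 against 10.07, 9.35 and 10.54, 7.67-fold lower. The fatty aldehyde dehydrogenase Aldh3a2 was lower (-1.43 ± 0.18) and so was the keratin gene Krt23 (-2.06 ± 0.26).

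Several of the largest reductions were in none of the lists. Cox6b2, a cytochrome c oxidase subunit isoform best known from testis, read 8.35, 8.24, 8.71 and 8.37 against 5.44, 5.36 and 5.17 (-3.09 ± 0.12, adjusted p = 3e-10) and was called under corn oil at -1.55. The serine incorporator gene Serinc2 was lower (-2.66), as were the protease gene Ctse (-2.35) and the droplet-bound dehydrogenase Hsd17b11 (-2.33). All 3 differed between the treatments (adjusted p = 0.000197, 0.0142 and 0.00307). The melatonin receptor gene Mtnr1a was lower (-2.22 ± 0.18), under corn oil too (-1.54). The noncoding transcript Gm15441 was lower (-2.80 ± 0.59, adjusted p = 0.00566), but WT-58 read 9.34 where the other wild-type livers read 5.80 to 6.01. Ugt3a1, a glycosyltransferase, was lower (-2.26 ± 0.21). Mfsd2a, a transporter of lysophospholipid-bound fatty acids that stands in the CAR target list, read 9.60 to 10.46 against 7.51, 8.17 and 7.61 (-2.11 ± 0.25, adjusted p = 8.26e-05).

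Promoters of the lower genes were searched on both strands for AGGTCA, the core sequence that nuclear receptors such as PPARα and the retinoid X receptor recognize. RefSeq windows of 250 bases before to 50 after a gene start (GRCm38.p6) were at hand for 58 of the 75 genes at least 2-fold lower and for 20 of the 27 at least 2-fold higher. Cyp4a10, Cyp4a14, Cyp4a31 and Vnn1, among the largest reductions, had no window and were not searched. The core stood in 6 of the 58 (10.3%), 4 of the 20 (20.0%) and 16.3% of the 15614 array genes with a window. Direct repeats of the core spaced by 1 base, in the strict form or with any base at the fourth position of each core, stood in 0 of the 58 and 0 of the 20 windows, against 0.0512% (strict) and 0.410% (loose) of the array genes. These shares describe the short windows only. Direct repeats were so rare over all array genes that 0 in sets of this size cannot tell the sets from the array. The bases before the gene start are shown for 3 lower fatty acid genes that hold a core there, 5′ to 3′ on the gene's strand, with the core or its reverse complement in capitals.
Cd36 (chr5:17835897-17836146, minus strand): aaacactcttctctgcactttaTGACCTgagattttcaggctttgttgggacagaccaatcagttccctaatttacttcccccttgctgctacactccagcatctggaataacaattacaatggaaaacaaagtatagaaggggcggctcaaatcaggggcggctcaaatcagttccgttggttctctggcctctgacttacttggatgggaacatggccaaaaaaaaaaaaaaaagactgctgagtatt
Acadvl (chr11:70015429-70015678, minus strand): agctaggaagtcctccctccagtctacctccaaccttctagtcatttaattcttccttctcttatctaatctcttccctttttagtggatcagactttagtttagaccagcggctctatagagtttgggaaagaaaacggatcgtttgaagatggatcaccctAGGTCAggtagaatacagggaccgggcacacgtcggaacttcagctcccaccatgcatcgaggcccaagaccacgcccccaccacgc
Plin5 (chr17:56117549-56117798, minus strand): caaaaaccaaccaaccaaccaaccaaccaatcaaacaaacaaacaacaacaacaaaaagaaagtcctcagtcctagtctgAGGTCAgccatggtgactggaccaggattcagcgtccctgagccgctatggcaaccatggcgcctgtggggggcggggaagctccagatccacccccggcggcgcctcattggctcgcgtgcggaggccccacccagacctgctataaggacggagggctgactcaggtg
The first base of the core lay at position -228 from the start of Cd36, -87 from that of Acadvl and -170 from that of Plin5. These 3 genes differed between genotypes by -2.06, -1.52 and -1.44 under DEHP.

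Genes of lipogenesis did not move together. Of 28, 3 were higher and 3 lower, with 1 lower without WT-58 or KO-122. The malic enzyme gene Me1 was lower (-0.97 ± 0.16). The stearoyl-CoA desaturase gene Scd1 read 12.96, 12.91, 12.94 and 12.60 in wild-type livers and 11.56, 8.45 and 11.68 in null livers. KO-122 carried most of that spread: the difference was -2.29 ± 0.63 (adjusted p = 0.0276), and leaving out 1 array ended the call in 4 of 7 fits (adjusted p = 0.136 without KO-122). The liver pyruvate kinase gene Pklr was higher in null than in wild-type livers, with 9.83, 9.82, 9.62 and 9.80 against 10.99, 10.80 and 10.90 (1.13 ± 0.16, 2.18-fold, adjusted p = 0.000377). Under corn oil Pklr differed by 0.00, and the treatments differed (adjusted p = 0.0245). Tkfc, a kinase of fructose breakdown, was higher by 0.58 ± 0.07.

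Of 23 genes of glucose metabolism 7 were higher and 0 lower (11 and 2 unadjusted), at a median of 0.21, and 4 were higher without KO-123 or in the fit of the 7 arrays alone. The glucose-6-phosphate transporter Slc37a4 read 10.20 to 10.41 against 10.63 to 10.94 (0.45 ± 0.08, adjusted p = 0.00244). The liver glycogen phosphorylase Pygl was higher by 0.41 ± 0.07 and the glucokinase regulator Gckr by 0.38 ± 0.08. For Slc37a4 and Pygl the corn oil difference had the opposite sign, at -0.09 and -0.13, and the treatments differed (adjusted p = 0.0354 and 0.0163).

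Cholesterol synthesis had 2 of 20 genes lower and 0 higher (2 and 2 unadjusted), with 0 lower without KO-122 and 1 without WT-56, WT-57, WT-59 or KO-121. Pmvk, the phosphomevalonate kinase, read 9.60, 9.64, 9.96 and 9.86 against 9.31, 8.72 and 9.13 (-0.71 ± 0.16, adjusted p = 0.00737, and 0.0603 without KO-122). Hmgcs1, the cytosolic HMG-CoA synthase, differed by 0.10 ± 0.16 (adjusted p = 0.795), with wild-type livers from 10.95 to 11.53 and null livers from 11.38 to 11.40. In bile acid handling 4 of 30 genes were higher (13.3%) and 2 lower (6.67%), beside 5.09% and 5.61% of all genes, with 2 higher without KO-123. Slco1a4, an organic anion transporter, read 9.71, 9.33, 8.58 and 8.66 against 10.65, 10.95 and 10.87 (1.75 ± 0.21, 3.37-fold, adjusted p = 9.5e-05). The sterol exporter pair Abcg5 and Abcg8 was lower (-0.50 and -0.62), under corn oil too (-0.50 and -0.58). Cyp7a1, which starts the classical route from cholesterol to bile acids, ranged from 10.08 to 11.41 in wild-type and from 9.74 to 11 in null livers (-0.55 ± 0.45, adjusted p = 0.531).

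CAR targets were the xenobiotic list with the most genes higher in null livers. Of 35, 14 were higher and 2 lower at a median of 0.26, against 3 higher and 1 lower under corn oil (median -0.03). The number lower was 1 without WT-56, WT-57, KO-121 or KO-122. The difference between the treatments was called for 6 of the 35, each more positive under DEHP. Cyp2c37, an arachidonic acid epoxygenase family member, read 9.81, 9.79, 9.24 and 9.78 in wild-type livers and 11.21, 11.41 and 11.81 in null livers. The difference was 1.82 ± 0.15 (3.52-fold, adjusted p = 1.09e-06) against 0.42 under corn oil, and the treatments differed (adjusted p = 0.00422). Its close relative Cyp2c54 was higher by 1.19 ± 0.13. Cyp2c55 read 5.27, 5.50, 5.10 and 5.61 against 6.14, 6.41 and 6.81 (1.08 ± 0.17, adjusted p = 0.000742), where the corn oil difference was -0.45, not called. The sulfotransferase Sult5a1 was higher by 1.13 ± 0.19 and the caffeine-oxidizing Cyp1a2 by 0.71 ± 0.08.

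Cyp2b10, the best known CAR target, did not follow them. Under DEHP its wild-type livers read 8.77, 8.33, 8.68 and 8.86 and its null livers 8.43, 8.91 and 8.23, a null range that spans the wild-type one (-0.14 ± 0.16, adjusted p = 0.699). Under corn oil it was lower in null livers (-1.23, adjusted p = 0.000269), with group means of 6.97 against 8.20. The difference between the treatments was 1.09 (adjusted p = 0.0308). For Cyp2b10 and Cyp2c37 alike the null liver stood higher, relative to the wild type, under DEHP than under corn oil.

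Targets of the pregnane X receptor had 5 of 17 higher and 1 lower (2 without WT-59), the sulfate donor synthase Papss2 at 0.67 ± 0.10 and the glutathione transferase Gstm2 at 0.80 ± 0.13 among the higher. The multidrug exporter Abcb1b was lower (-0.82 ± 0.15). NRF2 targets had 6 of 33 higher and 2 lower, and 3 higher without KO-121 or without KO-122. Other cytochromes of the 2d, 2j and related families had 5 of 24 higher and 0 lower (10 and 1 unadjusted). Cyp2d12 was the largest, with 5.33, 4.40, 4.62 and 5.45 against 6.76, 6.41 and 7.44 (1.92 ± 0.29, and 1.49 with 16 added), and was higher under corn oil too, by 1.52. The carboxylesterase Ces2g was higher by 0.86 ± 0.09. Of 20 glutathione transferases 5 were higher and 4 lower, 2 lower without KO-122, with Gsta4 at 0.57 and Gstt2 at -0.88. Of 22 drug and anion transporters 7 were higher (4 without KO-123) and 2 lower: Slc22a7 was higher by 1.10 ± 0.19 and the exporter Abcg2 lower (-0.74 ± 0.11).

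**Figure D3:**
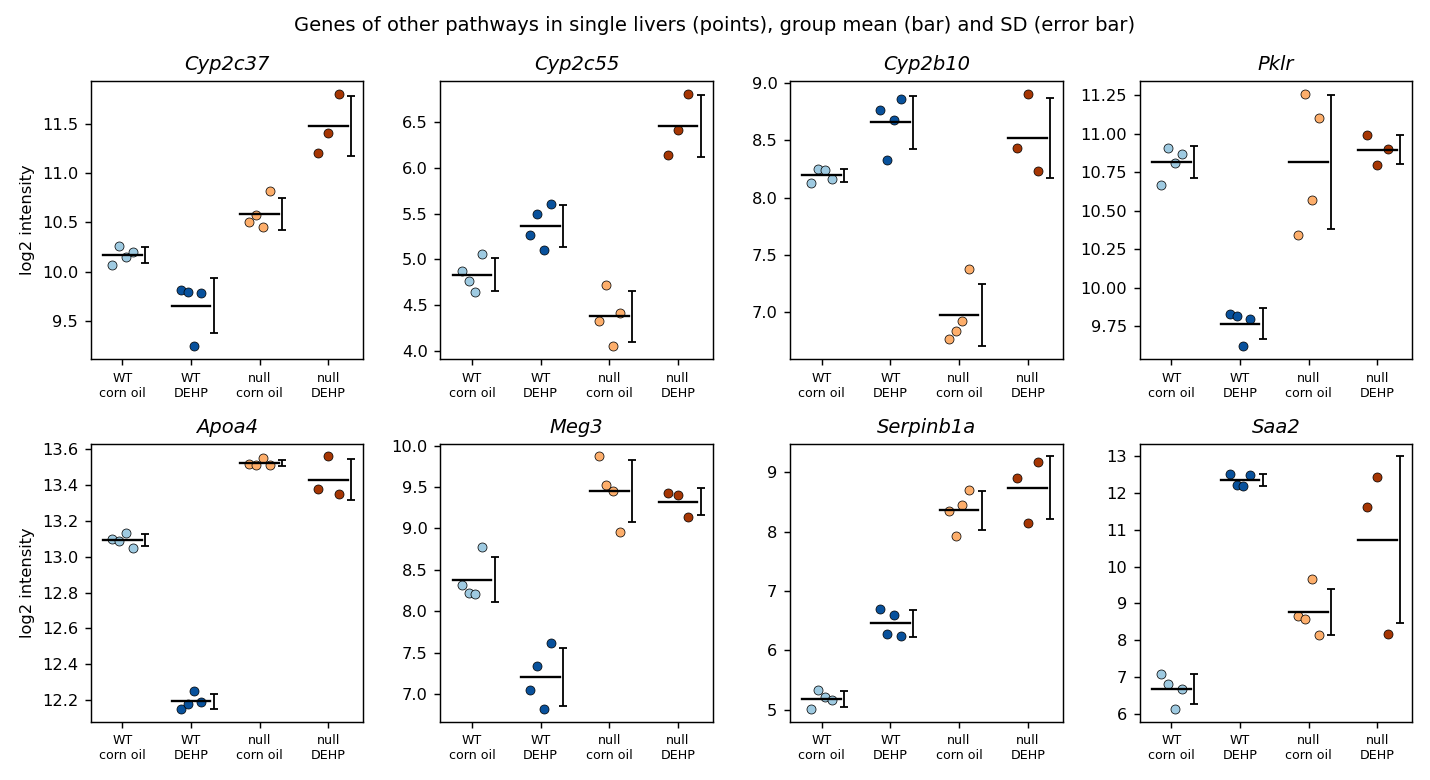
Log2 intensity of 8 genes outside fatty acid oxidation in single livers (points) of the 4 groups, with the group mean (bar) and SD (error bar). Cyp2c37, Cyp2c55, Pklr, Apoa4, Meg3 and Serpinb1a are higher in every DEHP-treated null liver than in any DEHP-treated wild-type liver, and Cyp2b10 and Saa2 overlap.

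Outside these pathways the largest gene higher in null livers was Serpinb1a, an inhibitor of neutrophil proteases. It read 6.70, 6.28, 6.60 and 6.24 against 8.90, 8.15 and 9.17 (2.28 ± 0.21, 4.87-fold, adjusted p = 4.33e-06), and was 3.18 higher under corn oil. Lrtm1, a leucine-rich membrane protein gene, was higher by 2.24 ± 0.23 (adjusted p = 1.74e-05). The B cell adaptor gene Blnk, the myotubularin family gene Mtmr11 and the retinol dehydrogenase family gene Rdh16f2 were higher by 1.45, 1.25 and 1.38, and by 1.57, 1.19 and 1.04 under corn oil. Gm10804, a predicted gene, was higher by 1.43 ± 0.20 and the G protein regulator Rgs16 by 1.42 ± 0.34. Rgs16 read 6.19 to 6.43 in wild-type and 7.64 to 7.97 in null livers, with 0.06 between the genotypes under corn oil. Cish, a feedback inhibitor of cytokine receptors, was higher by 1.48 ± 0.40 (adjusted p = 0.027). Leaving out 1 array ended that call in 5 of 7 fits, with an adjusted p of 0.133 without KO-122.

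Meg3, an imprinted long noncoding RNA transcribed from the maternal copy of the Dlk1-Dio3 locus on chromosome 12 and a member of the CAR target list, was 4.33-fold higher. Its wild-type livers read 7.05, 7.34, 6.82 and 7.62 and its null livers 9.43, 9.40 and 9.14 (2.11 ± 0.20, adjusted p = 9.08e-06), and under corn oil it was higher by 1.07. The locus, looked up after this value was seen, holds 46 measured genes between Dlk1 and Dio3, Meg3 among them, and 40 of these are microRNA genes. Of the 46, 15 were higher and 0 lower (23 and 0 unadjusted), at a median of 0.24. Without KO-121, 9 were higher, and with the dimmer genes left out 5 of the locus were called. Rian, a second maternal noncoding RNA, was higher by 0.98 ± 0.23 (adjusted p = 0.0128, and 0.0627 without KO-122). The paternally expressed coding genes of the locus, Dlk1, Rtl1 and Dio3, differed by 0.00, -0.02 and -0.03 (adjusted p = 0.987, 0.955 and 0.892).

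**Figure D4:**
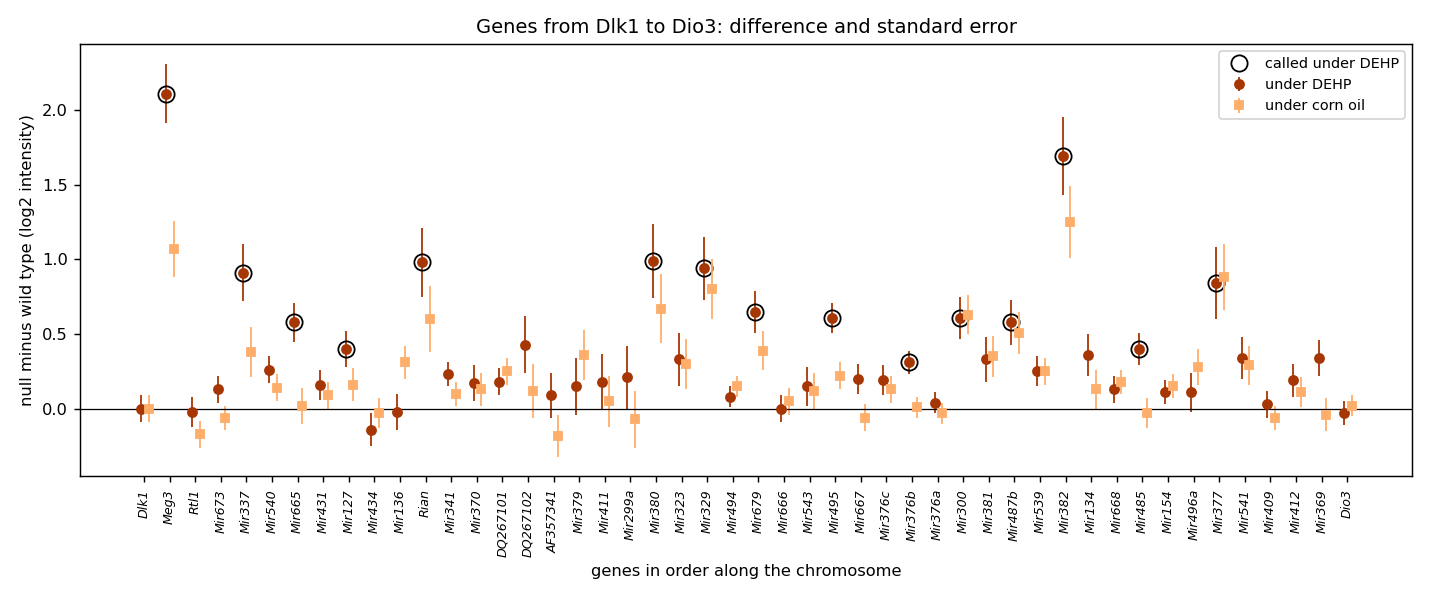
Null minus wild-type difference in log2 intensity, with its standard error, for the 48 measured genes from Dlk1 to Dio3 in their order along the chromosome, under DEHP (circles) and corn oil (squares), with called genes under DEHP ringed. Meg3 and Mir382 stand highest, and Dlk1, Rtl1 and Dio3 lie at the zero line.

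The microRNA genes of the locus accounted for 13 of the 19 microRNA genes that were higher among 291 on the array, with 0 lower (46 and 0 unadjusted). The 19 are 6.53% of the 291, beside 5.09% higher among all genes. Most microRNA genes are dim, and dim genes were seldom called. Of the 4985 dimmest genes 37 were higher, and of the next 4984 genes 70. The share of all genes is therefore not a matched background, and whether microRNA genes as a whole stood out was not tested. The 13 became 7 without KO-121, and the 19 became 10, 11 and 11 without WT-59, KO-121 and KO-122. Outside the locus 6 of 251 were higher (2.39%), with 3 without WT-56 or WT-57, 1 without WT-59 and 2 without KO-122. Mir382 read 3.23, 4.21, 3.0 and 3.63 against 5.46, 4.98 and 5.18 (1.69 ± 0.26, adjusted p = 0.000625), dim readings at which the difference was 0.93 with 16 added. Mir380, Mir329, Mir337 and Mir377 were higher by 0.99, 0.94, 0.91 and 0.84. The calls of Mir380 (adjusted p = 0.0689 without KO-121) and Mir377 (adjusted p = 0.178 without KO-122) did not hold in every fit. These probe sets read the transcribed gene, and mature microRNAs were not measured. The mature forms that these 5 genes encode are listed from RefSeq (GRCm38.p6), 5′ to 3′, with the seed (bases 2 to 8), the part that pairs with targets, in capitals.
mmu-miR-382-5p: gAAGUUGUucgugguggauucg
mmu-miR-382-3p: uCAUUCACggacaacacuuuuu
mmu-miR-380-5p: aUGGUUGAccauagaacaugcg
mmu-miR-380-3p: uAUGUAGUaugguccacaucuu
mmu-miR-329-5p: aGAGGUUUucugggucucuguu
mmu-miR-329-3p: aACACACCcagcuaaccuuuuu
mmu-miR-337-5p: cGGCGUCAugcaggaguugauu
mmu-miR-337-3p: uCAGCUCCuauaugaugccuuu
mmu-miR-377-5p: aGAGGUUGcccuuggugaauuc
mmu-miR-377-3p: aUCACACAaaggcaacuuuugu
The 10 sequences hold 10 different seeds, so no pair of them shares a seed.

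Complement and coagulation proteins are made by hepatocytes and secreted into the blood. Of 32 complement and coagulation genes 22 were higher (68.8%) and 0 lower (27 and 1 unadjusted), at a median of 0.30. Without KO-122 these were 12 and 1, and in the fit of the 7 arrays alone 13 and 0. All 32 lay at or above the median level of all genes, and 638 of the 4985 brightest genes were higher. Complement C2 read 9.03, 8.77, 8.81 and 8.94 against 9.51, 9.70 and 9.63 (0.73 ± 0.08, adjusted p = 5.42e-05), and coagulation factor F5 was higher by 0.69 ± 0.08. C1ra and C6 were higher by 0.66 and 0.64. Under corn oil 2 genes of the list were called, both higher, at a list median of 0.02. The difference between the treatments was called for 4 of the 32, each more positive under DEHP.

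Among 22 apolipoprotein and lipoprotein genes 6 were higher (3 without KO-122 or in the fit of the 7 arrays alone) and 2 lower. Apoa4, a protein of chylomicrons and high-density lipoprotein, read 12.15, 12.18, 12.25 and 12.19 against 13.38, 13.56 and 13.35 (1.24 ± 0.06, 2.36-fold, adjusted p = 4.76e-09), 0.81 more than under corn oil (adjusted p = 0.000172). The endothelial lipase gene Lipg and the phospholipid transfer protein gene Pltp were lower (-1.27 and -0.90). Of 24 hepatokine and growth genes 8 were higher and 2 lower, with 3 higher without KO-122 and 5 without WT-59. Igfbp1, a binding protein of insulin-like growth factors, was higher by 0.97 ± 0.14 and the hepatokine gene Lect2 by 0.81 ± 0.10. Acute phase genes had 1 of 32 higher and 0 lower (8 and 3 unadjusted), with 4 higher without KO-121 or KO-123 and 0 without WT-58, WT-59 or KO-122. Within the null group they were uneven: Saa1 read 11.06, 11.59 and 7.95, Saa2 11.60, 12.42 and 8.17 and Lcn2 11.10, 12.39 and 8.81. KO-123 thus lay far below its group mates, KO-122 read highest of the null livers, and all 4 wild-type livers read 10.99 or more at each of these genes. No difference was called (Saa2 -1.61 ± 0.67, adjusted p = 0.15).

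Lower genes also included large housekeeping complexes, each by a small amount. Of 56 oxidative phosphorylation genes 33 were lower and 0 higher (37 and 0 unadjusted, median -0.34), and 19 were lower without KO-122. Of 65 mitochondrial ribosome genes 33 were lower and 0 higher (47 and 0 unadjusted, median -0.27), and 17 without KO-122. Proteasome genes had 22 of 34 lower and 0 higher (26 and 0 unadjusted, median -0.27), and 11 without KO-122. These are bright genes, to be read against 26.1% called among the 4985 brightest genes. In single livers the median over the oxidative phosphorylation list was -0.246, -0.453 and -0.225 relative to the wild-type mean, with the wild-type livers between -0.042 and 0.024, so KO-122 was lowest but the other two null livers also lay below all wild-type livers. The same held for the mitochondrial ribosome (-0.246, -0.313 and -0.231) and the proteasome (-0.254, -0.324 and -0.254).

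Named examples show the size of these shifts. The complex I subunit Ndufb3 read 8.50, 8.31, 8.56 and 8.75 against 7.86, 7.67 and 7.74 (-0.77 ± 0.11, adjusted p = 0.000278), and cytochrome c, Cycs, was lower (-0.67 ± 0.11). Mrpl14, a protein of the large mitochondrial ribosomal subunit, was lower (-0.81 ± 0.12) and so was Mrps28 of the small subunit (-0.71 ± 0.11). The proteasome core subunit Psma7 read 9.95 to 10.10 against 9.22 to 9.41 (-0.69 ± 0.07, adjusted p = 1.61e-05) and Psma3 was lower (-0.63 ± 0.08). Under corn oil 0 oxidative phosphorylation and 0 mitochondrial ribosome genes were called (3 and 6 lower at an unadjusted p below 0.05), and 1 proteasome gene was higher. The difference between the treatments was called for few of them: 4 of 56 oxidative phosphorylation, 1 of 65 mitochondrial ribosome and 5 of 34 proteasome genes. Each was more negative under DEHP. Among 35 heat shock and endoplasmic reticulum stress genes 5 were lower (14.3%) and 3 higher (8.57%), beside 5.61% and 5.09% of all genes. The mitochondrial chaperonin partner Hspe1 was lower (-0.57) and the small heat shock protein gene Hspb1 too (-0.89). The number lower in that list fell to 2 or 3 without WT-56, WT-58, WT-59, KO-121 or KO-122, and the number higher to 1 without KO-122.

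**Figure D5:**
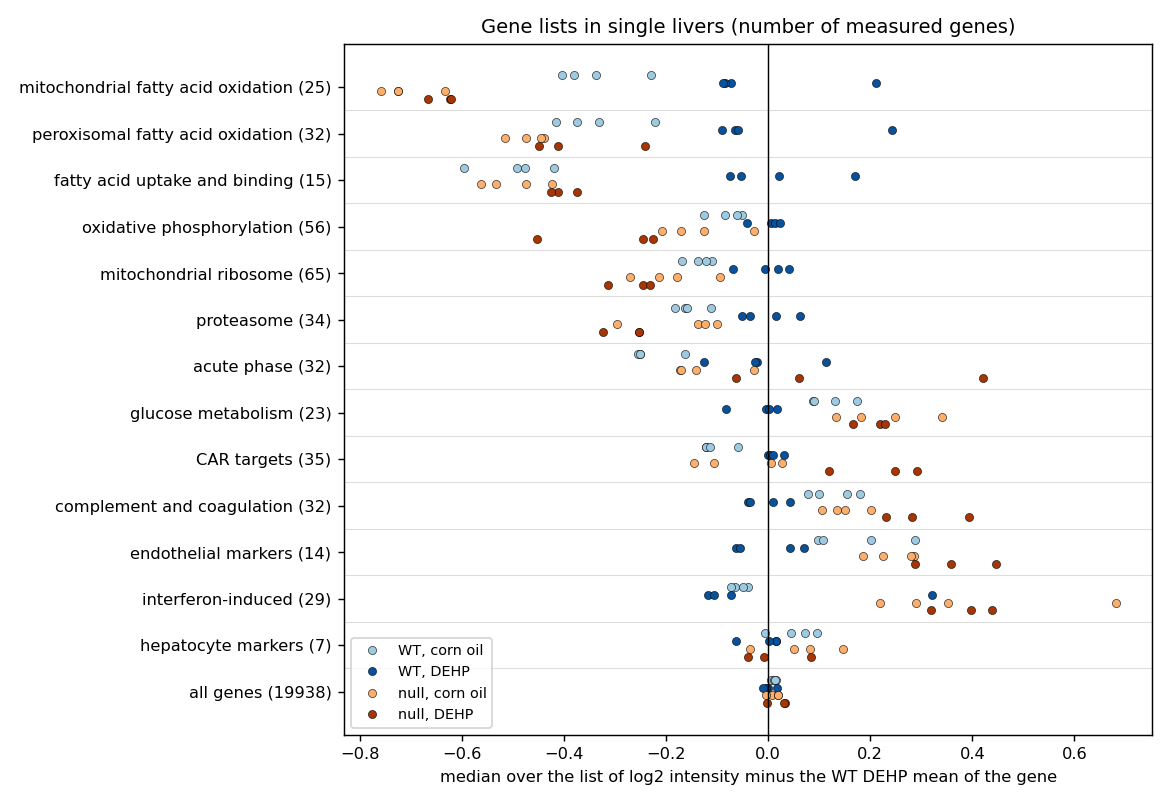
Median over each gene list of the log2 intensity minus the wild-type DEHP mean of the gene, 1 point per liver, for the 4 groups, with the number of measured genes in brackets. Mitochondrial fatty acid oxidation lies between -0.667 and -0.621 in null livers under DEHP. The complement and endothelial lists lie above zero in all 3 of them, and also in every corn oil liver of both genotypes. WT-58 stands apart from the other wild-type livers on the fatty acid and interferon lists.

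Among marker lists of other liver cells, the endothelial one had most of its members called. In bulk tissue fewer cells of a type and less RNA per cell cannot be told apart. Of 14 endothelial markers 10 were higher and 0 lower (12 and 0 unadjusted, median 0.36), and 5 without KO-122. Under corn oil 0 were called (2 higher unadjusted) and the median was 0.06. For 2 of the 14 the difference between the treatments was called, each more positive under DEHP. The summed intensity of the 14 markers ran from 5480 to 6000 in null and from 4220 to 4750 in wild-type livers under DEHP. Corn oil livers lay between, from 5050 to 5460 in null and from 4890 to 5480 in wild-type animals. The scavenger receptor gene Stab2 read 8.40, 8.49, 8.45 and 8.47 against 8.89, 8.99 and 8.95 (0.49 ± 0.06, adjusted p = 0.000124, and 0.0234 for the difference between the treatments). Kdr, a receptor of vascular endothelial growth factor, and the phosphatase Ptprb were each higher by 0.49.

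The macrophage list had 2 of 16 markers higher under DEHP, Mpeg1 at 0.85 ± 0.14 and Csf1r at 0.44 ± 0.11 (adjusted p = 0.0193, and 0.0857 without KO-121), and 3 higher under corn oil. Without WT-58 the number under DEHP was 6 and without KO-122 it was 1, and summed macrophage intensity ran from 4130 to 5060 in null and from 3050 to 4510 in wild-type livers. Of 14 stellate and matrix markers 3 were higher (1 without WT-58, WT-59, KO-121 or KO-122), with the matrix protein gene Reln at 0.65 ± 0.10. Of 10 pericentral hepatocyte markers 3 were higher (1 without WT-56, KO-122 or KO-123), and 3 under corn oil. Of 11 neutrophil markers 1 was higher, and 0 without WT-58, WT-59, KO-121 or KO-122. T and NK cell, B cell, cholangiocyte and pancreas lists (14, 8, 9 and 10 markers) had 0 called by limma under DEHP, and at an unadjusted p below 0.05 0, 1, 1 and 1 were lower. In these 4 lists 0, 0, 1 and 1 markers had a mean above the median of all genes. The others were dim, and arrays give a reading even where a transcript is absent, so these readings do not show that such cells were present. The part of cell composition in the differences above was not tested.

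Interferon-induced genes include antiviral effectors and their regulators. Of 29, 8 were higher and 0 lower under DEHP (19 and 0 unadjusted, median 0.40) and 6 higher and 0 lower under corn oil (21 and 0 unadjusted, median 0.42). The number higher under DEHP was 3 without KO-122 and 12 without WT-58 (median 0.51). Irf7, the regulator of interferon production, read 7.05, 7.37, 8.38 and 6.78 against 8.71, 8.74 and 8.39. WT-58 came close to the lowest null liver, and the difference was 1.22 ± 0.29 (adjusted p = 0.0126, and 0.0644 without KO-122), the same 1.22 as under corn oil. The deconjugase Usp18 was higher by 0.87 ± 0.22 (adjusted p = 0.0185, and 0.0745 without KO-121) and the chemokine gene Cxcl9 by 0.65 ± 0.13.

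Other nuclear receptor genes were mostly higher where they differed: 5 of 32 were higher, 2 without KO-122, and 1, Ppara itself, lower. Pparg, the relative that drives fat storage, read 6.96, 7.29, 7.19 and 7.30 against 7.92, 7.99 and 7.71 (0.69 ± 0.12, adjusted p = 0.00215), and was higher by 1.14 under corn oil. The thyroid hormone receptor gene Thra was higher by 0.37 ± 0.07. Hnf4a, a hepatocyte identity factor, was higher by 0.33 ± 0.08 (adjusted p = 0.00995, and 0.0627 without KO-122). The 26 receptors and cofactors not called lay between -0.23 and 0.56. Esr1, the estrogen receptor gene, was among these at 0.21 under DEHP, was lower (-0.45) under corn oil and differed between the treatments (adjusted p = 0.0383).

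Cell cycle genes had 3 of 39 lower (7.69%, near the 5.61% of all genes) and 0 higher (4 and 0 unadjusted). Their median was -0.04, with 1 lower without KO-122. The replication clamp gene Pcna read 8.83, 8.71, 8.74 and 8.87 against 8.47, 8.32 and 8.32 (-0.42 ± 0.10, adjusted p = 0.0165, and 0.0791 without KO-122), and the licensing inhibitor Gmnn was lower (-0.42 ± 0.08). Of 18 p53 and growth arrest genes 1 was lower (5.56%, near the share of all genes, and 2 genes without WT-59), Perp, a desmosomal p53 target (-0.82 ± 0.09). Among amino acid and urea cycle genes 7 of 40 were higher, 4 without KO-123, and 2 lower (0 without WT-56, WT-57 or KO-122 and 1 without WT-58 or WT-59), with the proline oxidase Prodh higher by 0.64 ± 0.08. Male-biased liver genes had 6 of 22 higher and 2 lower. The number higher moved to 3, 10 and 2 without WT-58, WT-59 and KO-122, and the number lower to 1 without WT-57, WT-59, KO-121 or KO-122. Female-biased genes had 1 of 24 higher (2 without WT-59 or KO-121) and 5 lower. Clock genes had 2 of 19 higher (10.5%, beside 5.09% of all genes) and 0 lower (4 and 1 unadjusted). Without WT-58, 4 were higher and 2 lower, and 1 was higher without WT-56, WT-59, KO-121 or KO-122.

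Genes within 1 Mb of Ppara travel with the targeted allele and were listed, again after the values were seen. Of 19 measured neighbours 4 were higher and 3 lower under DEHP, against 1 higher under corn oil, and 1 was lower without KO-122. The difference between the treatments was called for 0 of the 19. The spindle gene Gtse1 was higher by 0.62 ± 0.11 under DEHP and by 0.47 under corn oil. Pkdrej and Cdpf1 were higher by 0.78 and 0.45, and 5031439G07Rik was lower (-0.72 ± 0.15). The share of the neighbours that differed, 7 of 19, stands beside 10.7% of all genes, and whether position played a part was not tested.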

How the data were processed

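Liver RNA of 15 mice was measured on single-colour expression arrays, 1 array per animal, from 300 ng RNA, per the labels' protocols. The authors deposited 1 normalized intensity per probe set and array. How they normalized it is not given in the sources used, so its effect on small differences between arrays is unknown. The log2 of each deposited intensity was taken, with no further normalization. Of 35494 probe sets, 21789 have exactly 1 gene symbol, 1621 several and 12084 none in the platform annotation given with the values. Only the first kind was used, and 21698 of these matched a RefSeq gene. The brightest probe set by mean stood for each of the 999 genes with several, leaving 19938 genes. No detection call per probe was used, and the number of arrays limits the precision.

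limma 3.58.1 (R 4.3.3) fitted 1 mean per genotype and treatment to all 15 arrays (11 residual degrees of freedom), and p-values were adjusted by Benjamini-Hochberg over all genes. P-values printed come from that fit, or, where an animal is named as left out, from the same fit without its array. Each animal is a separate array, but nothing states whether animals shared a cage or a hybridization day. Values within a group correlated at 0.988 to 0.992 between arrays, and no 2 arrays were identical. Scripts were tested on simulated data.

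Genes were named from Ppara, Nr1i3 and Nr1i2, the 15 largest called differences without overlap in each direction, up to 4 called members per list, the 10 largest called under both treatments in the same direction and any in opposite directions, and a short list of targets named whether called or not. The lists and members were chosen with earlier results of these data known. Dlk1, Dio3, Rtl1, other genes of that locus, the neighbours of Ppara, Mpeg1 and Csf1r were added after their values were seen. Alternatives were a fit of 2 groups, quantile normalization, median centring, an added 16 before log2, omission of the dimmer genes, the mean of probe sets, an intensity trend with a robust prior, and leaving out each array. Tables used pandas 2.3.3 and figures matplotlib 3.10.9.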

Additional observations from a re-analysis of the deposited data

Results flagged for a closer look

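Single livers that lay far from the rest of their group were sought in groups of 4 by the gap to the nearest liver over the group's range, against Dixon's 95% critical value. Chance passes it in about 1 in 20 groups. Of 405 gene groups 35 passed, and of 48 list medians 5 did.

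WT-58 was the animal most often concerned among DEHP-treated wild-type livers. It read higher than its group mates at Acadl (11.56), Acot2 (10.73), Cxcl9 (5.92), Cyp4a31 (12.56), Decr2 (11.61), Gm15441 (9.34), Pex11a (10.56), Slc25a20 (11.38), Usp18 (6.32) and Vnn1 (11.12). At Cyp2c37 (9.24) and Pklr (9.62) it read lower. Its list medians stood at 0.243 for peroxisomal β-oxidation, 0.212 for mitochondrial fatty acid oxidation and 0.321 for interferon-induced genes, relative to the group mean. WT-59 stood apart at C1ra (7.92) and Scd1 (12.60), and WT-57 at Mir377 (3.51), with medians of 0.395 over cholangiocyte and 0.237 over pancreas markers.

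In corn oil livers of the null genotype, KO-116 stood apart at Acadvl (10.07), Acot2 (7.86), Acot8 (6.83), Cdpf1 (6.04) and Thra (7.34). KO-115 did at Ctse (8.22), Cyp4a10 (5.87), Fitm1 (6.58), Lipg (6.5), Nr1i2 (8.86), Ptprb (9.13) and Reln (9.20). KO-117 did at Cyp4f14 (10.78) and KO-118 at Cox6b2 (5.15), Mir329 (4.32) and Pygl (11.54). Among corn oil wild-type livers the readings were 8.74 for Ces2g in WT-54, 10.74 for Hnf4a in WT-52, 10.37 for Mfsd2a in WT-55 and 8.61 for Mrps28 in WT-53.

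For 43 genes named above the genotype difference under DEHP differed from that under corn oil by limma's adjusted p. More negative under DEHP were Acaa1b (-1.22), Acadl (-0.61), Acadvl (-0.61), Acot1 (-2.97), Acot2 (-1.99), Acot8 (-0.78), Cd36 (-2.59), Cox6b2 (-1.54), Ctse (-1.65), Cycs (-0.66), Cyp4a10 (-3.18), Cyp4a14 (-4.84), Cyp4a31 (-3.95) and Eci1 (-0.91). So were Ehhadh (-2.60), Fabp2 (-1.48), Fabp4 (-1.80), Hsd17b11 (-1.29), Hspe1 (-0.56), Lipg (-1.08), Mogat1 (-3.31), Pltp (-1.23), Psma3 (-0.66), Psma7 (-0.61), Retsat (-1.64), Serinc2 (-2.22) and Vnn1 (-3.71). More positive under DEHP were Apoa4 (0.81), Cyp1a2 (0.63), Cyp2b10 (1.09), Cyp2c37 (1.40), Cyp2c54 (1.04), Cyp2c55 (1.54), Cyp4f14 (0.72) and Dlc1 (0.65). The remaining ones were Esr1 (0.66), F5 (0.46), Pklr (1.13), Prodh (0.53), Pygl (0.53), Slc37a4 (0.55), Stab2 (0.43) and Tkfc (0.45).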

How the results depend on the processing

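The 7 arrays alone called 1331 genes under DEHP, 545 of them higher. Leaving out 1 array gave 1019 to 1950 genes, 411 to 929 higher and 608 to 1021 lower. Under corn oil the ranges were 159 to 230 genes, 79 to 132 higher and 76 to 103 lower. Genes whose difference itself differed between treatments numbered 61 to 299 without 1 array, 23 to 83 more positive under DEHP and 38 to 216 more negative. The more positive were 39 with median centring, the more positive and negative 180 and 238 with 16 added, 241 and 329 without the dimmer genes, and 177 and 247 with an intensity trend. The cause was not tested, except that fewer genes were tested without the dim ones. Of the called genes named above, 108 kept the call in all 7 fits without 1 array and 113 in all 7 other settings that held them. Uncalled differences that changed sign were Cyp2b10 (0.01), Lcn2 (0.33), Dlk1 (0.09) and Rtl1 (0.04) without KO-123, Dio3 (0.01), Dlk1 (0.03), Rtl1 (0.01) and Hmgcs1 (-0.02) without WT-56, and Dlk1 (0.01) without WT-58. Over all fits without 1 array these spanned -0.33 to 0.01 for Cyp2b10, -0.06 to 0.01 for Dio3, -0.06 to 0.09 for Dlk1, -0.02 to 0.18 for Hmgcs1, -1.47 to 0.33 for Lcn2 and -0.05 to 0.04 for Rtl1. No paired analysis was possible because the replicate numbers are animal numbers that the groups do not share. Genotype coincides with substrain, 3 null livers set the precision, and dim genes such as most microRNA genes are measured near background.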
